A study of Homo sapiens with 6 samples.

Results

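The transcripts described here are the fibroblast growth factor (FGF) receptors FGFR1, FGFR3, FGFR4 and FGFRL1, the ligands FGF1, FGF2, FGF5 and FGF9, the ligand carrier FGFBP1 and the receptor adaptor FRS2. A probe set, the group of short oligonucleotides that reads 1 transcript on the array, was included when the platform annotation gave 1 of these 10 symbols alone. The rule found 26 probe sets of 9 genes among 54613 probe sets other than controls. None carried the symbol FRS2 alone in the table used, so that FRS2 was not analysed here. Total RNA was taken from 2 variants of PC-3, an established human prostate carcinoma line from a bone metastasis, named PC-3/Mc and PC-3/S, and the labels name no treatment. Each was measured on 3 one-colour arrays labelled as biological replicates, and each mean ± SD below is over n = 3 arrays. The labels do not say whether replicates were separate cultures, so that a p-value covers only the spread among these arrays, which may be technical, and the lines stand for themselves alone.

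FGFs are secreted proteins that bring a pair of receptor tyrosine kinases together with the help of heparan sulfate chains on the cell surface. The activated receptor phosphorylates the adaptor FRS2, which feeds the RAS-ERK and PI3K pathways, and ERK in turn induces inhibitors such as the Sprouty proteins and dual-specificity phosphatases. In the prostate, FGFs are known as signals between stroma and epithelium. In FGFR1, FGFR2 and FGFR3 a choice between alternative exons, held to the epithelial form by the splicing factors ESRP1 and ESRP2, changes which ligands can bind.

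The ligands FGF1 and FGF5 were lower in PC-3/Mc on every probe set, FGF1 by the larger differences. The kinase-lacking receptor FGFRL1 was higher on both of its own, the dimmer of which had both line means under the floor set below. FGFR1 and FGF2 each had a probe set that was called and a brighter one that was not. FGFR3 and FGF9 could not be told from background in either line. Values are the deposited log2 expression values, a difference is the PC-3/Mc mean less the PC-3/S mean on that scale ± SE, and a probe set was called at an adjusted p under 0.05 (limma, Benjamini-Hochberg over all 54613 probe sets). Of the 26 member probe sets 5 were called higher (19.2%), against 18.4% of all probe sets. Another 7 were called lower (26.9%), against 17.5% of all probe sets. Together 46.2% of the members were called, against 35.9% of all probe sets, and 14 were not. Arrays of the 2 lines were fully separated for 15 of the 26 (57.7%), against 45.3% of all probe sets. The median difference was -0.07 over the members and -0.01 over all probe sets, and members moved in both directions.

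The 3 genes whose probe sets were all called in the same direction were FGF1, FGF5 and FGFRL1, and the stretches ahead of their transcription starts are shown because those results lead the account. Sequences are from RefSeq on GRCh38.p14, the 250 bases before a start, printed 5′ to 3′ on the strand of the gene. RefSeq lists 4 starts for FGF1, of which the most upstream and the most downstream are given, and 2 for FGF5, of which the upstream one is given. Capitals mark matches, on either strand, to the letters TGANTCA (the AP-1 site), CAGGTG (the E-box bound by ZEB and Snail), GGGCGG (the GC box), TATAAA (the TATA box) and CCGGAA (an ETS site).
FGF1 upstream start (chr5:142698071-142698320, minus strand): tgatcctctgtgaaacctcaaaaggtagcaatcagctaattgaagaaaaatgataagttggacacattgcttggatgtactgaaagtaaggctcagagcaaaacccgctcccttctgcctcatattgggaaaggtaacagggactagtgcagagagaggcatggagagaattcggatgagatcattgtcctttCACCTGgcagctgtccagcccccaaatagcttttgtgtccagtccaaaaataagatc
FGF1 downstream start (chr5:142644240-142644489, minus strand): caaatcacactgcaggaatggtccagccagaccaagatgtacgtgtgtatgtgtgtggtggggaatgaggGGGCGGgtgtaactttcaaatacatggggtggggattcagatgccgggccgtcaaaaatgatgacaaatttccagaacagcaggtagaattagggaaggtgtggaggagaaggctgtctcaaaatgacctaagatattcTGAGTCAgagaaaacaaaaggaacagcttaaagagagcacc
FGF5 (chr4:80266338-80266587, plus strand): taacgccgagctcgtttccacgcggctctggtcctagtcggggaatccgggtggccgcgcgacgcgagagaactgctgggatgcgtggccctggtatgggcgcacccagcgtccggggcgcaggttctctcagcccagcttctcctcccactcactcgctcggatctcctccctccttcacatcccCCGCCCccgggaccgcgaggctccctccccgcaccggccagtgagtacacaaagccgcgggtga
FGFRL1 (chr4:1012214-1012463, plus strand): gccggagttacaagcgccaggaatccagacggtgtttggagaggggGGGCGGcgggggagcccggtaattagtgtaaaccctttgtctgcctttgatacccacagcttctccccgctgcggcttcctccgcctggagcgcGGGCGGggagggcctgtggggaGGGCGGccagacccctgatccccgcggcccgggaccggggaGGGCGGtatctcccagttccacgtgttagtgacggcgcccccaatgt
The upstream FGF1 stretch held 1 CAGGTG match and no other. The downstream FGF1 stretch held 1 TGANTCA match, at 41 bases before the start, and 1 GGGCGG match. The printed FGF5 stretch held 1 GGGCGG match and that of FGFRL1 held 4. The GC content was 44.8%, 47.2%, 68.8% and 67.6% in the order printed. Among the starts not printed, the downstream FGF5 stretch held 2 overlapping TATAAA matches and no GGGCGG. Of the FGF1 starts not printed, 1 stretch held a CAGGTG match and another a GGGCGG match. Over all 35116 promoters of the table, stretches of the same length held TGANTCA in 6.57%, CAGGTG in 17.5%, GGGCGG in 42.6%, TATAAA in 10.7% and CCGGAA in 14.5%. A match describes letters and shows neither binding nor a cause.

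The arrays were alike in brightness, with medians from 4.98 to 5.09, and correlated across probe sets at 0.995 to 0.997 within a line and 0.949 to 0.953 between lines. The gene CTNNA1, lost from the PC-3 genome, read 5.18 at most on any array, and this reading served as a floor. The floor is rough, since the T-cell gene CD3D, not known to be active in prostate cells, read 5.32 ± 0.22 for PC-3/Mc against 5.46 ± 0.17 for PC-3/S. Where the dimmer line lay at or under the floor, a fold is a lower bound. Keratin genes KRT8, KRT18 and KRT19 read between 8.78 and 12.48 in both lines, while the epithelial marker EPCAM read 11.88 ± 0.19 for PC-3/Mc against 6.45 ± 0.22 for PC-3/S, and E-cadherin (CDH1) was under the floor in PC-3/S. Of the 7 prostate carcinoma epithelial markers 4 were higher in PC-3/Mc and 3 lower. The lower ones were KRT19, KRT7 (6.86 ± 0.16 against 8.40 ± 0.07) and, near the floor, KRT5 (4.89 ± 0.14 against 5.29 ± 0.21). Called higher and lower were 1 and 1 of 6 luminal prostate genes, 3 and 3 of 9 fibroblast genes, and 1 and 1 of 7 endothelial genes. Over all genes, each by its brightest probe set, 22.3% were called higher and 21.4% lower. The fibroblast genes reached 4.12 at COL1A2 and -1.93 at COL3A1. Of 6 leukocyte genes 0 were called in limma, 1 of them (CD14) having an unadjusted p under 0.05, and 5 lay under the floor in both lines. With quantile normalization, and with arrays centred on their medians, 1 of the 6 was called higher in each case. The part of these markers in the results below was not tested. In bulk RNA, fewer cells with a transcript and less transcript per cell cannot be told apart.

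**Figure D1:**
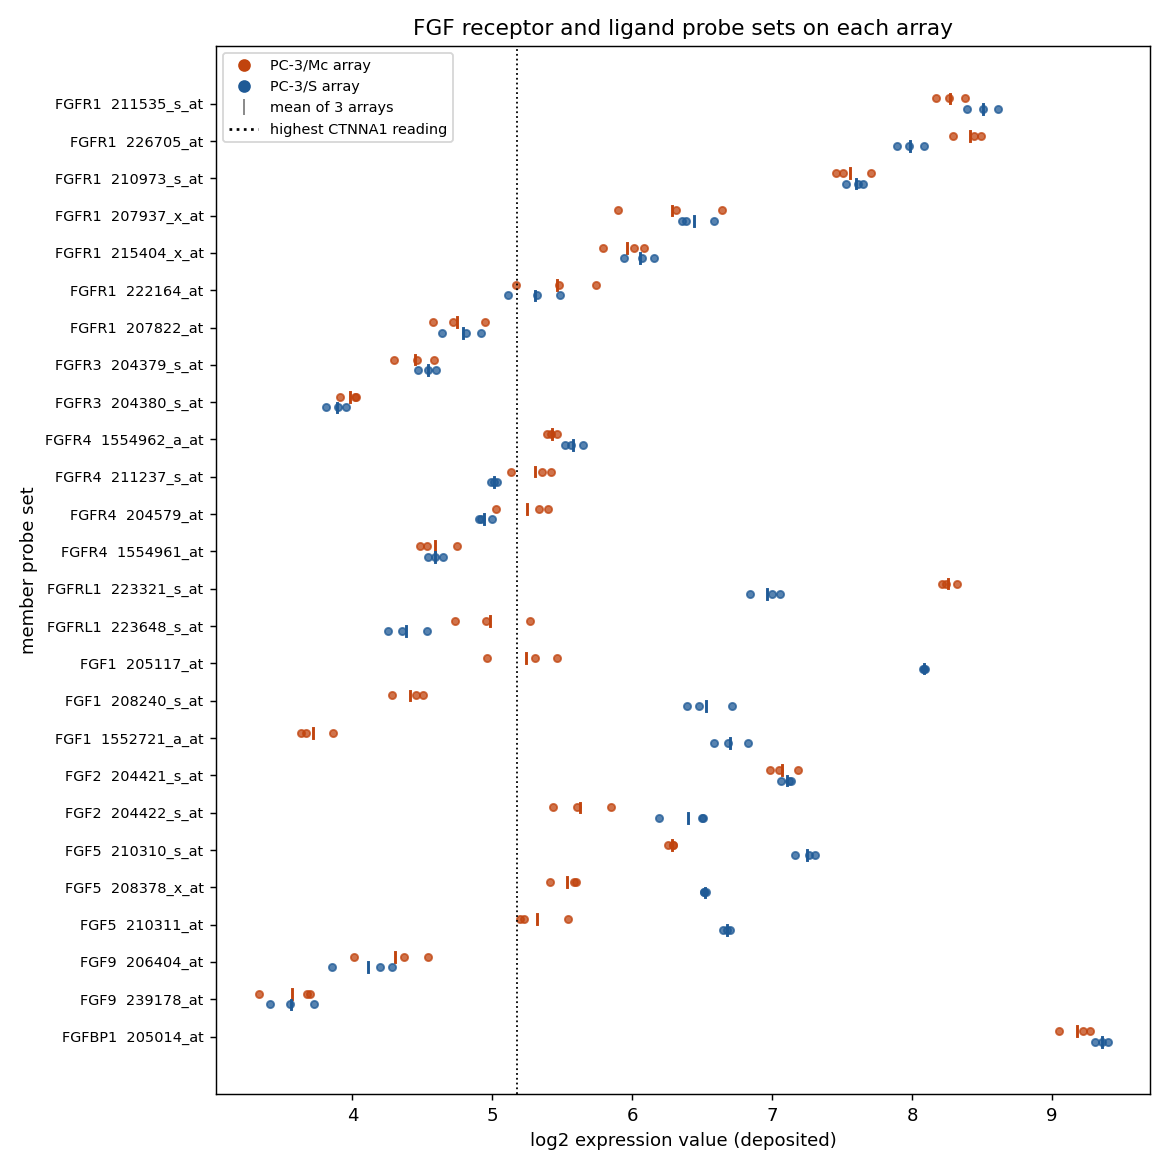
Log2 expression value on each of the 6 arrays (points) for the 26 member probe sets, with the mean of 3 arrays as a tick and the highest CTNNA1 reading, 5.18, as a dotted line. The 3 FGF1 and 3 FGF5 probe sets have all PC-3/S points to the right of all PC-3/Mc points, and the FGFR3 and FGF9 points lie left of the dotted line.

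Among the ligands, FGF1, acidic FGF, which can bind all the FGF receptors, gave the largest differences of all members. Probe set 205117_at read 4.96, 5.30 and 5.46 on the PC-3/Mc arrays and 8.09, 8.09 and 8.08 on the PC-3/S arrays. The PC-3/S arrays stood together and far above all PC-3/Mc arrays, whose readings straddled the floor. The difference was -2.85 ± 0.12, or 7.18-fold (adjusted p = 3.06e-09), and 0.71% of all probe sets differed by as much or more. On this probe set the PC-3/Mc readings lay within or below the range of CD3D, from 5.12 to 5.61, so that its fold may be too small. Probe set 1552721_a_at read 3.67, 3.63 and 3.86 against 6.69, 6.59 and 6.83, and 208240_s_at read 4.28, 4.50 and 4.46 against 6.39, 6.71 and 6.48. PC-3/Mc lay under the floor on both, and no array of one line reached the other. Their differences were -2.98 ± 0.10 (adjusted p = 4.28e-10) and -2.11 ± 0.11 (adjusted p = 1.57e-08), at least 2.88-fold and at least 2.55-fold.

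FGF5, a ligand known for ending the growth phase of hair follicles, was lower in PC-3/Mc on all 3 probe sets, with no overlap between the lines. Probe set 210310_s_at read 6.29, 6.26 and 6.29 in PC-3/Mc and 7.27, 7.31 and 7.16 in PC-3/S. The difference of -0.97 ± 0.08 made it 1.95-fold lower (adjusted p = 1.83e-06). Probe set 208378_x_at read 5.41, 5.60 and 5.58 against 6.52, 6.52 and 6.51, a 1.98-fold difference (adjusted p = 2.15e-06). On both, PC-3/Mc stayed above the floor, so that neither fold is a bound by that rule. The PC-3/Mc readings of 208378_x_at lay within the range of CD3D, however, from 5.12 to 5.61, so that its fold may be too small. Probe set 210311_at read 5.22, 5.20 and 5.54 against 6.70, 6.65 and 6.68, 2.55-fold lower at a difference of -1.35 ± 0.10 (adjusted p = 5.79e-07). Set against 210310_s_at, the brightest of the gene, on the same array, its difference departed by -0.39 ± 0.12 (limma adjusted p = 0.0311), with the PC-3/Mc readings of 210311_at close to the floor. Such a disagreement with the brightest probe set of the same gene was called for 33.5% of the 21316 further probe sets on the array.

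FGF2, basic FGF, a ligand without a classical secretion signal, gave unlike results on its 2 probe sets. The brighter one, 204421_s_at, read 7.19, 7.05 and 6.98 in PC-3/Mc and 7.13, 7.07 and 7.12 in PC-3/S. The lines overlapped, and the difference of -0.03 had a 95% interval from -0.23 to 0.16 (limma adjusted p = 0.823). The other, 204422_s_at, read 5.61, 5.85 and 5.43 against 6.50, 6.19 and 6.50, with every PC-3/S array above every PC-3/Mc array. It was 1.70-fold lower in PC-3/Mc (-0.77 ± 0.12, adjusted p = 0.000305). The 2 probe sets disagreed by -0.73 ± 0.13 (limma adjusted p = 0.00159). The sources used here do not say which part of the transcript each one reads. NUDT6, the gene that overlaps FGF2 on the opposite strand, differed by -0.14 and was not called (limma adjusted p = 0.375).

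FGF9, a ligand known from testis and lung development, stayed under the floor. Probe set 206404_at read 4.37, 4.01 and 4.54 in PC-3/Mc and 4.28, 4.20 and 3.85 in PC-3/S, and 239178_at read between 3.33 and 3.72 on the 6 arrays. The lines overlapped on both, and the adjusted p-values in limma were 0.343 and 0.987. FGFBP1, a carrier that releases FGFs from the matrix, was clear of the floor by contrast. It read 9.23, 9.05 and 9.27 in PC-3/Mc and 9.40, 9.36 and 9.31 in PC-3/S, all PC-3/S arrays being slightly higher. The difference of -0.17 (95% interval -0.37 to 0.02) was not called (limma adjusted p = 0.17). With quantile normalization it was -0.27 and passed (limma adjusted p = 0.046), and over the 13 alternatives its adjusted p ran from 0.046 to 0.445.

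Of the receptors, FGFR1, the kinase that mediates much mesenchymal FGF signalling, had 7 probe sets, of which 1 was called. Probe set 226705_at read 8.50, 8.29 and 8.45 in PC-3/Mc and 8.09, 7.90 and 7.98 in PC-3/S, without overlap. It was 1.34-fold higher in PC-3/Mc (0.42 ± 0.09, adjusted p = 0.00316). The brightest, 211535_s_at, read 8.38, 8.17 and 8.26 against 8.39, 8.51 and 8.61, the lowest PC-3/S array standing just above the highest PC-3/Mc array. That difference ran the other way at -0.23 ± 0.10 and was not called (adjusted p = 0.0798 in limma). It passed with quantile normalization (-0.33, limma adjusted p = 0.013) and with an intensity trend and robust prior (limma adjusted p = 0.0322), its adjusted p running from 0.013 to 0.241 over all 12 alternatives. The 2 probe sets disagreed by 0.66 ± 0.12 (limma adjusted p = 0.00151). The other 5 overlapped between the lines and differed by -0.16 to 0.16, and 207822_at among them lay under the floor in both. No single direction held for FGFR1.

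FGFR3, a receptor kinase known for restraining bone growth, was under the floor on every array. Probe set 204379_s_at read 4.58, 4.46 and 4.30 in PC-3/Mc and 4.54, 4.60 and 4.47 in PC-3/S, and 204380_s_at read between 3.81 and 4.03 on the 6 arrays. The lines overlapped on both (limma adjusted p = 0.527 and 0.431).

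FGFR4, the receptor best known for its part with FGF19 in the liver, was dim on all 4 probe sets. Its brightest, 1554962_a_at, read 5.39, 5.42 and 5.47 against 5.56, 5.65 and 5.52 in PC-3/S. All PC-3/S arrays were the higher there, and the difference was not called (-0.15, limma adjusted p = 0.207). Probe set 211237_s_at read 5.36, 5.13 and 5.42 against 4.99, 5.01 and 5.04, and 204579_at read 5.33, 5.40 and 5.02 against 4.92, 4.90 and 5.0. PC-3/Mc was the higher on both without overlap, at adjusted p = 0.033 and 0.0383 in limma, but the bounds were only 1.09-fold and 1.05-fold. Both disagreed with the brightest probe set, whose difference ran the other way (0.44 ± 0.12 and 0.46 ± 0.14, limma adjusted p = 0.013 and 0.0224), and PC-3/S lay under the floor on both. CD3D read between 5.12 and 5.61 on the same arrays. The call of 211237_s_at was lost when any 1 of PC-3/Mc replicates 1 and 3 and the 3 PC-3/S replicates was left out, and that of 204579_at when any 1 of PC-3/Mc replicates 1 and 2 and the 3 PC-3/S replicates was. Both calls were also lost with the replicate number as a block (limma adjusted p = 0.0617 and 0.0765) and with an intensity trend and robust prior (limma adjusted p = 0.0599 and 0.05). The adjusted p-values in limma ran from 0.00962 to 0.1 and from 0.00338 to 0.145 over the alternatives. The last, 1554961_at, lay under the floor in both lines.

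FGFRL1, a receptor that binds FGF ligands but has no kinase domain, was the member most raised in PC-3/Mc. Probe set 223321_s_at read 8.32, 8.21 and 8.24 in PC-3/Mc and 7.002, 7.05 and 6.84 in PC-3/S. Every PC-3/Mc array stood more than 1 log2 unit above every PC-3/S array. The difference was 1.29 ± 0.09, or 2.45-fold (adjusted p = 2.8e-07), and 4.82% of all probe sets differed by as much. Probe set 223648_s_at read 4.74, 4.96 and 5.27 against 4.36, 4.53 and 4.26. It was called in the same direction (0.61 ± 0.13, adjusted p = 0.00266), though both line means lay under the floor and no fold is given. It disagreed in size with 223321_s_at (-0.69 ± 0.15, limma adjusted p = 0.00455), a comparison that those readings under the floor limit.

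**Figure D2:**
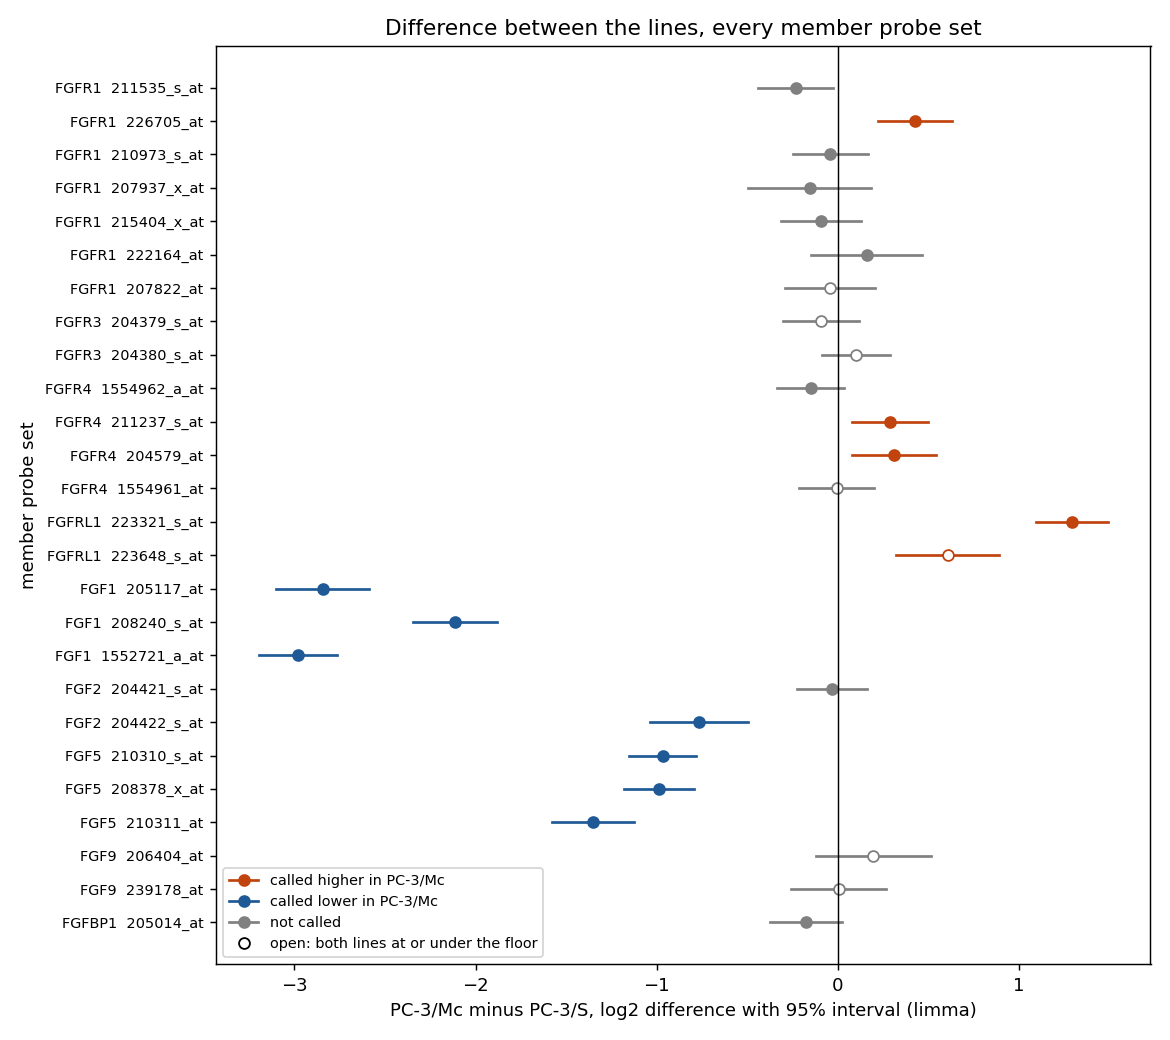
Difference between the lines (PC-3/Mc minus PC-3/S, log2) with its 95% interval for each member probe set, coloured by call, with open points where both lines lay at or under the floor. FGF1 stands apart at -2.11 to -2.98, FGF5 lies between -0.97 and -1.35, and FGFRL1 lies to the right at 1.29 and 0.61.

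The remaining genes of the pathway were read from lists, each gene by its brightest probe set. By that measure 43.7% of all 19775 genes were called, 22.3% higher in PC-3/Mc and 21.4% lower, and the median difference of all genes was -0.03. Of 18 other FGF genes 11 lay under the floor in both lines, 2 were called higher, 1 lower and 15 neither (median 0.00). The largest difference was that of FGF13, an intracellular relative that does not act through FGF receptors, at 9.27, 9.33 and 9.17 in PC-3/Mc and 7.98, 7.81 and 7.97 in PC-3/S (1.34 ± 0.09, 2.52-fold, adjusted p = 2.11e-07). The others called, FGF14 (0.34) and FGF4 (-0.38), were under the floor in both lines and were picked out after their values were seen. FGF4 lost its call when arrays were centred or quantile-normalized, which left 2 higher and 0 lower in each case, with medians of 0.05 (centred) and 0.03 (quantile).

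A list of 13 further genes, of receptors, co-receptors and genes linked to them or to their ligands, had 0 higher and 4 lower (median -0.08). FLRT3, a membrane protein that binds FGF receptors, was at least 1.51-fold lower, and GALNT3, which glycosylates FGF23, was 3.54-fold lower. FGFR1OP2 (-0.88), which takes its name from a fusion with FGFR1, was picked out after its values were seen. FGFR2, another receptor kinase, was lower on its brightest probe set (5.36 ± 0.13 against 5.77 ± 0.02, -0.41 ± 0.09, adjusted p = 0.00341), and its other 10 probe sets lay under the floor in both lines. On that brightest probe set the PC-3/Mc readings, 5.29, 5.28 and 5.51, lay within the range of CD3D, from 5.12 to 5.61. FGFR2 in PC-3/Mc thus could not be told from background.

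The feedback inhibitors leaned to lower readings in PC-3/Mc, where 7 of 14 were called lower, 2 higher and 5 neither (median -0.37). Of all genes 21.4% were called lower and 22.3% higher. DUSP5, a nuclear ERK phosphatase, read 7.65, 7.57 and 7.51 in PC-3/Mc and 10.94, 10.65 and 10.78 in PC-3/S, 9.27-fold lower (adjusted p = 1.95e-10). CBLB, a ubiquitin ligase for receptor kinases, was 7.69-fold lower. SPRY4 read 6.90, 6.72 and 6.67 against 9.04, 8.94 and 8.82, 4.51-fold lower, and SPRY2 was 2.48-fold lower, both Sprouty inhibitors of RAS-ERK signalling. Against this direction ran IL17RD (Sef), an FGF receptor antagonist, 3.01-fold higher in PC-3/Mc (adjusted p = 4.44e-08). The PC-3/S readings of IL17RD, 5.14, 5.23 and 5.32, straddled the floor, and its probe set 229263_at lay under the floor in both lines. DUSP6, the ERK phosphatase most used as a readout of FGF signalling, was at 8.97 ± 0.05 and 8.97 ± 0.03 on its brightest probe set. That was a difference of 0.00 with a 95% interval from -0.18 to 0.18 (limma adjusted p = 0.985). Also not called were 208892_s_at (0.01) and 208891_at (-0.24, limma adjusted p = 0.115). On 208891_at the lines did not overlap, and the 95% interval ran from -0.472 to -0.001. The list thus held members of both directions.

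Genes listed as early targets or effectors of FGF signalling were split, 5 higher, 8 lower and 5 not called of 18 (median -0.08), and SPRY2 and DUSP6 stand in this list too. Whether FGF induces each of them in these lines was not tested. MYC was 3.25-fold higher in PC-3/Mc. Lower were the ETS factors ELK3 (3.01-fold) and ETV1 (2.05-fold). The related factors ETV4 and ETV5, both used as FGF targets, differed from ETV1: ETV5 was higher by 0.71 ± 0.10 (adjusted p = 6.87e-05), and ETV4 was not called (0.08 ± 0.10, adjusted p = 0.598). Signal adaptors and kinases gave 9 higher, 5 lower and 9 not called of 23 (median 0.14), a split that became 11 and 4 with centred arrays and 7 and 6 with quantile normalization. PIK3R1, a regulatory subunit of PI3K, was 2.41-fold higher and the ERK-activated kinase RPS6KA1 2.11-fold. The PC-3/S readings of PIK3R1, from 5.34 to 5.39, lay within the range of CD3D, from 5.12 to 5.61. SOS2, a RAS activator, was 2.17-fold lower, and PLCG1, a phospholipase that docks on FGF receptors, 2.11-fold.

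Among 31 genes of heparan sulfate, the co-receptor of FGFs, 9 were higher, 7 lower and 15 not called (median 0.07). HS3ST3A1, which adds 3-O-sulfate, read 9.36, 9.29 and 9.18 in PC-3/Mc and 4.35, 4.23 and 4.15 in PC-3/S, at least 17.1-fold higher (adjusted p = 3.41e-12). HS6ST2, which adds 6-O-sulfate, read 3.93, 3.63 and 3.84 against 8.34, 8.26 and 8.48, at least 9.08-fold lower (adjusted p = 1.73e-11). On both, 1 line lay under the floor on all of its arrays and the other was far above it. HS2ST1, which adds 2-O-sulfate, was 2.58-fold higher and GLCE, the epimerase before it, at least 2.00-fold. The chain polymerase EXT1 was 2.56-fold lower, the carrier proteins GPC4 at least 2.67-fold and SDC2 at least 1.46-fold.

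Of 15 regulators of receptor exon choice 6 were higher, 2 lower and 7 not called (median 0.14). ESRP1 read 8.43, 8.48 and 8.42 in PC-3/Mc and 4.50, 4.35 and 4.33 in PC-3/S, at least 9.63-fold higher (adjusted p = 1.13e-11). PTBP2, a polypyrimidine-tract splicing repressor, was 10.04-fold higher on 218683_at. CELF1, a splicing and mRNA decay factor, was 2.04-fold higher on its brightest of 7 probe sets, while 209489_at was lower (-0.40). The receptor exons themselves were not read, since the sources used here do not give the targets of the FGFR1 probe sets. ESRP2 was not analysed here.

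**Figure D3:**
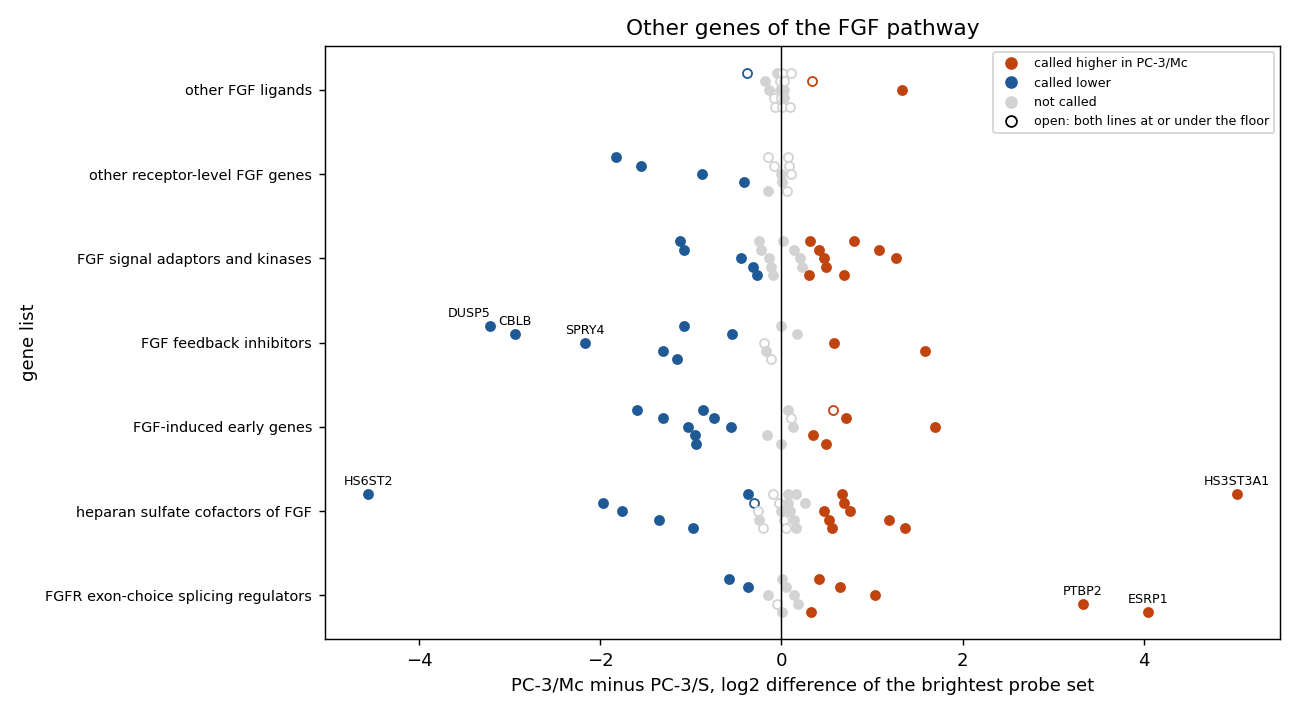
Difference between the lines (log2) for each gene of 7 lists of the FGF pathway, by its brightest probe set, coloured by call and open where both lines lay at or under the floor; genes at 2 or more are named. Feedback inhibitors reach -3.21 at DUSP5, and heparan sulfate genes span from -4.56 at HS6ST2 to 5.03 at HS3ST3A1.

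The genes around each member were compared in RefSeq gene order, with 5 measured genes on each side. Of the 10 neighbours of FGF1 on chromosome 5, 1 was higher, 4 lower and 5 not called. The nearest on one side were SPRY4-IT1 (-1.22), a noncoding transcript of the SPRY4 locus, and SPRY4 itself (-2.17) at place -2. FGF1, an FGF ligand, and SPRY4, an FGF feedback inhibitor close to it, were thus both lower in PC-3/Mc. The pair was picked out after its values were seen. The genes beside FGF1 on the other side, LINC01844 and ARHGAP26, were not called (0.10 and 0.24), and NR3C1, the glucocorticoid receptor, was lower (-1.19). Around FGF5 1 neighbour was higher, 1 lower and 8 not called, and around FGFRL1, on the short arm of chromosome 4, 3 were higher, 2 lower and 5 not called.

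FGFR3, on the same arm, lay among genes that were mostly higher in PC-3/Mc. Of its 10 neighbours 9 were higher in PC-3/Mc and 1 lower (median 0.84), led by the histone methyltransferase gene NSD2 (1.54), the spindle gene TACC3 (1.42) and the histone mRNA-binding gene SLBP (1.23), while FGFR3 stayed under the floor. FGFBP1, further along that arm, had 2 higher, 1 lower and 7 not called. For FGF2 the counts were 2, 3 and 5, with SPRY1, another Sprouty gene, lower by -0.55 at the third place. FGFR1 had 5, 3 and 2, FGFR4 2, 3 and 5, and FGF9 5, 2 and 3. The counts over neighbours describe these places and were not tested against other places.

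**Figure D4:**
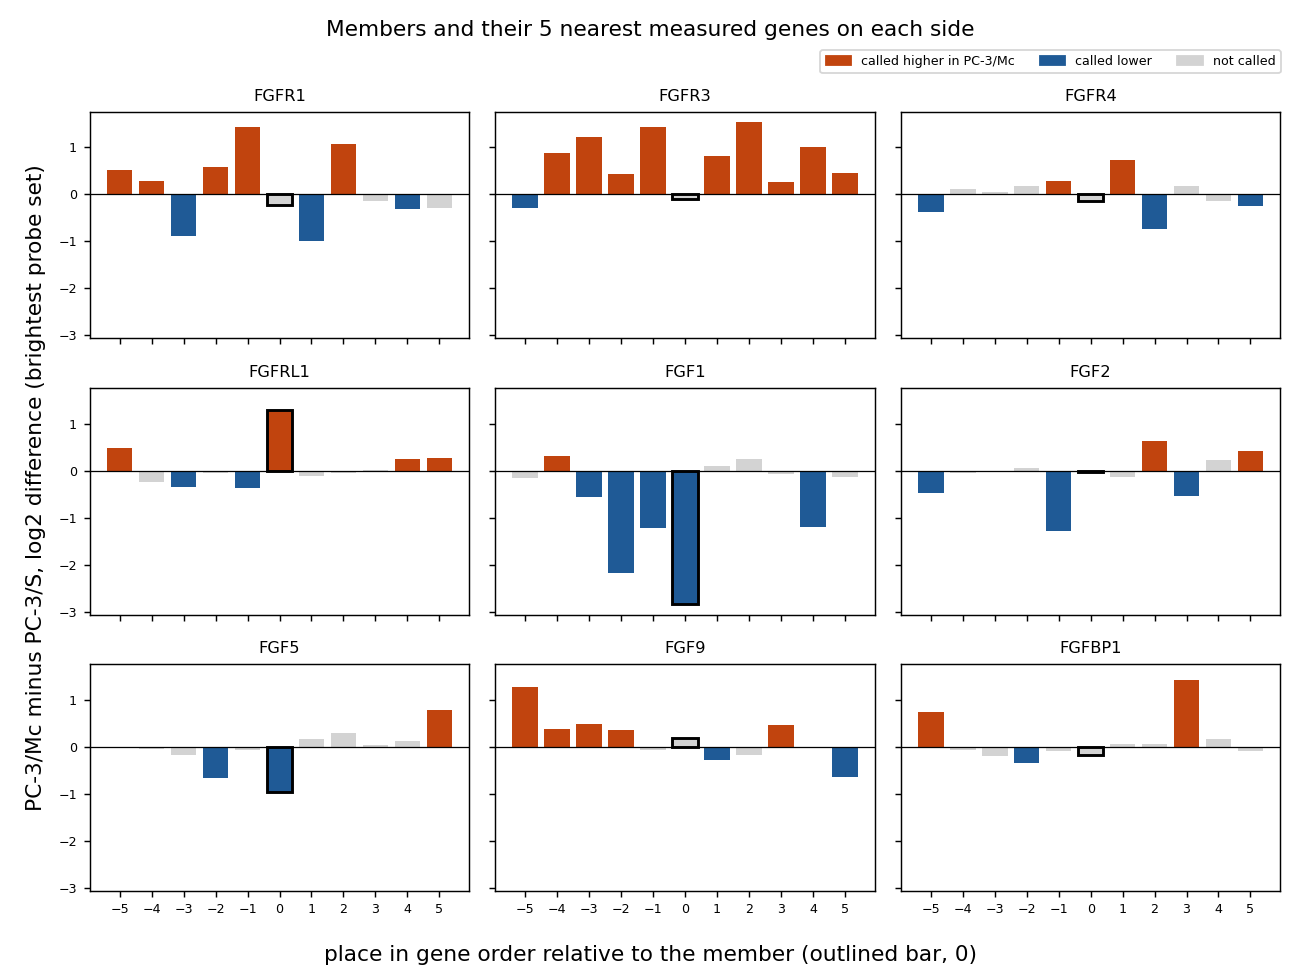
Difference between the lines (log2, brightest probe set) for each member (outlined bar at 0) and its 5 nearest measured genes on each side in gene order, coloured by call. The FGF1 panel shows SPRY4 at place -2 lower together with FGF1, the FGFRL1 panel shows 1 tall bar among short ones, and 9 of the 10 bars around FGFR3 point up.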

How the data were processed

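The starting point was the table of log2 expression values that the authors deposited, 6 arrays by 54675 probe sets. The sources used here do not name software, background correction or normalization, and the base and the lack of centring per gene were judged from the values (2.59 to 14.45). Apart from 62 controls, 41091 probe sets had 1 gene symbol, 1801 several and 11721 none; 0 symbols needed an update against RefSeq (GRCh38.p14). The 2 lines were compared by two-sided linear models without covariates (lmFit and eBayes of limma 3.58.1, under R 4.3.3) over 54613 probe sets, after a trial on simulated data. Lists used each gene's probe set with the highest mean. Disagreement between probe sets was tested on within-array differences from that probe set. The number of arrays limits precision, with a median SE of 0.098. Members, lists and the floor were chosen with earlier results of these data known. From each list, up to 4 called genes per direction were named that had a log2 difference of at least 2-fold as measured (a bound can be smaller), no overlap and the higher line above the floor, with FGFR2, ESRP1, ESRP2 (not analysed here), ETV4, ETV5, DUSP6, SPRY2, SPRY4 and CTNNA1 to be given regardless. Alternatives covered scaling, filters, features fitted, the prior, the replicate block, leaving out each array and the floor.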

Additional observations from a re-analysis of the deposited data

How the results depend on the processing

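All 3 FGF1 and 3 FGF5 probe sets, both of FGFRL1, 226705_at of FGFR1 and 204422_s_at of FGF2 kept their call under every alternative that included them. Against 19582 called probe sets, 5 members higher and 7 lower, fitting 1 probe set per gene gave 9083, 1 and 2, and leaving out probe sets ending in _x_at or _s_at gave 11981, 2 and 3, both with fewer features by construction. The latter also gave 2 receptor-level genes in place of 4 and 2 disagreeing probe sets in place of 7. Members higher numbered 3 with an intensity trend and robust prior, and 3 with the replicate number as a block, both without the 2 FGFR4 probe sets. With the block, other FGF genes called numbered 1 in place of 3; the block changed no other count here by over 1.5 times. The numbers did not pair the arrays (correlations of deviations from -0.31 to -0.01). Leaving out 1 array gave 3 to 4 members higher and 1 to 3 other FGF genes; the cause was not tested. Signs turned only for uncalled differences. The largest of them was -0.155, for 207937_x_at of FGFR1, which became 0.038 without PC-3/Mc replicate 1. The others were near 0. Quantile normalization gave 0.003 for 207822_at and 0.037 for 1554961_at. Centring gave 0.007 for 210973_s_at, 0.005 for 207822_at, 0.043 for 1554961_at and 0.015 for 204421_s_at. Leaving out 1 array gave -0.117 to 0.01 for 210973_s_at, -0.333 to 0.038 for 207937_x_at, -0.144 to 0.043 for 207822_at, -0.085 to 0.047 for 1554961_at, -0.09 to 0.011 for 204421_s_at and -0.072 to 0.123 for 239178_at. A floor at the median of all readings, 5.03, raised the FGF1 bounds to 3.18-fold and 2.82-fold and those of FGFR4 to 1.20-fold and 1.16-fold. Readings near or under the floor limit FGFR2, FGFR3, FGFR4, FGF9 and 223648_s_at of FGFRL1. They also limit the folds of FGF1 and those of 208378_x_at and 210311_at of FGF5.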
